A study of Mus musculus with 5 samples.

Results

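Polycomb group proteins silence developmental genes, and 10 genes that encode them were examined for ChIP-seq peaks of the E3 ubiquitin ligase RNF12 and of its substrate, the transcription factor REX1. The 10 genes are *Ezh2*, *Eed*, *Suz12*, *Jarid2*, *Mtf2*, *Rnf2*, *Ring1*, *Pcgf6*, *Kdm2b* and *Cbx7*, out of 21755 protein-coding genes on chromosomes 1 to 19 and X. They were chosen as subunits of the Polycomb complexes, with earlier results of these data known. A peak was assigned to a gene where its summit lay in the gene body or within 5 kb of it. There are 3 peak lists, each from 1 library of V5-tagged protein precipitated from female mouse embryonic stem cells (mESCs) of a 129/Sv-Cast/Ei background: FLAG-V5-REX1 in WT cells, FLAG-V5-RNF12 WT in Rlim+/- cells, and FLAG-V5-RNF12(H569A,C572A) in Rlim+/- cells, *Rlim* being the gene of RNF12. RNF12 H569A,C572A has no catalytic activity and is called the RNF12 mutant here. Both RNF12 proteins were stably expressed from a vector with the CAG promoter, so the level of the tagged protein is that of a transgene, and both RNF12 libraries came from cells given 15 μM MG132, a proteasome inhibitor, for 3 h and fixed with 2 mM disuccinimidyl glutarate and 1% formaldehyde. For REX1, the sample labels describe a V5-tagged protein, while the study describes REX1 occupancy as coming from earlier work, and the difference was not resolved here. No MG132 treatment or fixation is recorded for the REX1 library. The REX1 and RNF12 lists thus differ in protein and genotype and may differ in treatment and fixation. Effects of these cannot be told apart.

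Polycomb repressive complex 2 (PRC2) methylates lysine 27 of histone H3, and Polycomb repressive complex 1 (PRC1) ubiquitylates histone H2A. In mESCs both complexes sit mainly at CpG islands of developmental genes, where canonical PRC1 reads the methyl mark through a CBX protein and variant PRC1 is brought in by other DNA-binding subunits. *Cbx7* and *Jarid2* are highly expressed in pluripotent cells, whereas *Eed* and *Suz12* belong to the core of PRC2 together with *Ezh2* or its paralogue *Ezh1*. The comparison asks where RNF12 and REX1 were found at the genes of this machinery, and whether both were found at the same places.

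In all, 96050 peaks were called for REX1, 97602 in the RNF12 WT library and 98124 with the RNF12 mutant. With 1 library in each list there are no replicates, so no difference below carries a test. Intervals on shares of peaks (95%, Wilson) cover counting error only and take peaks as independent, which peaks of 1 gene are not. The lists give no read totals, so the depth is unknown and the absence of a peak means only that none was called. The authors' fold enrichment over the control is used within a list and never between lists, because which control library stands behind each list is not settled here. Each peak is therefore described by its percentile, the share of all peaks of its own list with a lower fold enrichment. Peak lists hold no expression values, so the cell type could not be checked against marker genes.

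The strongest site of REX1 at these genes was the outer start of *Cbx7*, and the strongest of RNF12 WT was the promoter of *Mtf2*. The sequences around these summits and those of other peaks named below are given first, so that the letters at these sites can be read beside their values. They were picked for the results below, and 7 of the 9 hold ATGGC or GCCAT, so they do not stand for all peaks. Each is written 5′ to 3′ on the strand of the gene, from build GRCm38, in a window of 101 bases centred on the summit, or as 30 bases where an untranslated region is annotated in the window. Capitals mark ATGGC and its reverse complement GCCAT, the 5 letters with which every string of the REX1 motif begins and with which the core AAGATGGC of the related factor YY1 ends.
*Cbx7* outer start, REX1 summit, chr15:79970621-79970721, minus strand: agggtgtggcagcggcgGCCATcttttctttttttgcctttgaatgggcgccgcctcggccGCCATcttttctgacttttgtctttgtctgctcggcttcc
*Cbx7* intron, REX1 summit, chr15:79954125-79954225, minus strand: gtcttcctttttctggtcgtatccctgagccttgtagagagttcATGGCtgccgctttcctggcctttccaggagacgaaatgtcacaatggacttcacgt
*Mtf2* promoter, REX1 summit, chr5:108065721-108065750, plus strand: gcgggaaaccaaaATGGCgaagggctgttg
*Mtf2* promoter, RNF12 WT summit, chr5:108065543-108065643, plus strand: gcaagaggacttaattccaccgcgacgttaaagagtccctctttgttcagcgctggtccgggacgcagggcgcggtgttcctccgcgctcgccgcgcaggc
*Ring1* promoter, REX1 summit, chr17:34024626-34024655, minus strand: ctcggcgcccagGCCATGGCggcggtggcg
*Rnf2* promoter, RNF12 mutant summit, chr1:151500680-151500709, minus strand: gcagggagggggATGGCgacgtctgcgagg
*Kdm2b* promoter, REX1 summit, chr5:122900590-122900690, minus strand: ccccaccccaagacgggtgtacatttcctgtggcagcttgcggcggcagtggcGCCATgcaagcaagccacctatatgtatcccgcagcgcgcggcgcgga
*Eed* downstream site, RNF12 mutant summit, chr7:89951590-89951690, minus strand: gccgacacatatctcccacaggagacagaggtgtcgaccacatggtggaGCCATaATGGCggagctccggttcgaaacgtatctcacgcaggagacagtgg
*Pcgf6* promoter, RNF12 WT summit, chr19:47050895-47050924, minus strand: cggcgcctgcgcactggtacgaaagggggc
The window at the outer start of *Cbx7* holds GCCATCTT, the YY1 core read on the other strand, at 2 places, and 1 of them also carries the REX1 string ATGGCGGC on that strand. ATGGC or GCCAT was within 50 bp of the summit at 32 of the 83 REX1 peaks of the 10 genes (38.6%, beside 37.0% of all REX1 peaks), at 11 of 73 RNF12 WT peaks (15.1%, beside 20.7%) and at 11 of 51 mutant peaks (21.6%, beside 15.7%). It occurred in 40.5% of all RefSeq promoters of 300 bases. The window at *Mtf2* holds ATGGC at the REX1 summit and not at the RNF12 WT summit.

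All 10 genes had at least 1 peak in every list, in a genome where this was common. The REX1 list had a peak at 79.0% of all protein-coding genes, the RNF12 WT list at 79.9% and the RNF12 mutant list at 81.3%. At the 10 genes REX1 had 83 peaks, RNF12 WT 73 and the RNF12 mutant 51. The median gene of the 10 had 4.50 peaks for REX1 and 3.50 for each RNF12 list, against 3.00 for REX1, 3.00 for RNF12 WT and 2.00 for the RNF12 mutant over all genes. Per 10 kb of gene and flank, the medians were 1.14, 0.758 and 0.754 for the 10 genes and 0.671, 0.703 and 0.595 for all genes. The excess over all genes per 10 kb was thus largest for REX1.

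**Figure D1:**
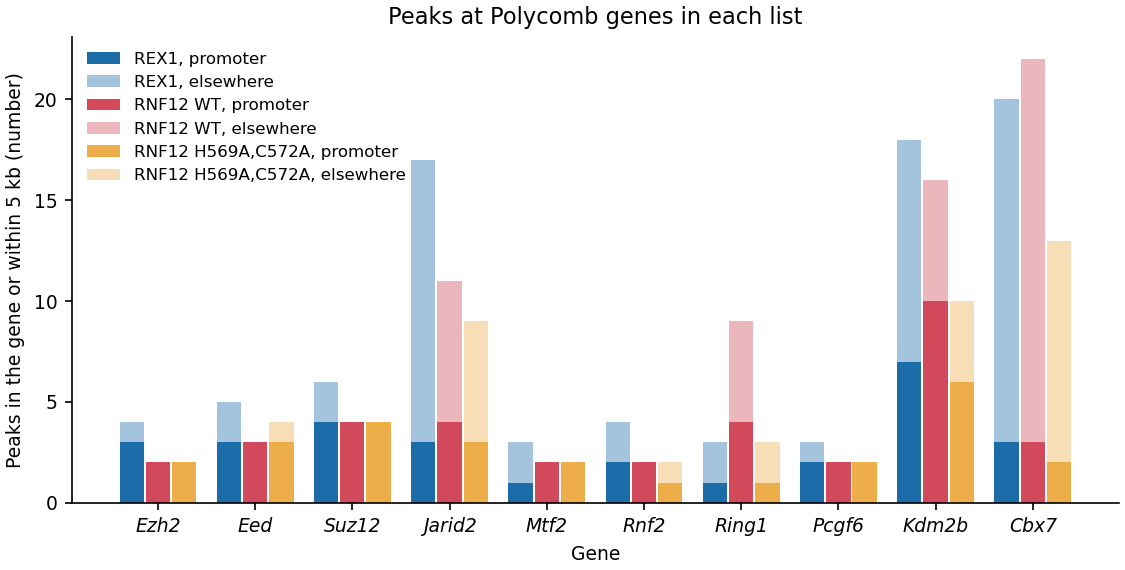
Number of peaks (y axis) in or within 5 kb of each Polycomb gene (x axis) in the 3 lists (the mutant is RNF12 H569A,C572A), with peaks within 1 kb of a start site of the gene in full colour and the others in pale colour. *Jarid2*, *Kdm2b* and *Cbx7* carry most peaks, from 9 to 22 in a list, and most REX1 peaks at *Jarid2* and *Cbx7* are pale.

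A promoter peak is one with its summit within 1 kb of a transcription start site (TSS) of a protein-coding transcript of the gene. All 10 genes had a promoter peak in all 3 lists, where 59.2% of all protein-coding genes did. In the single lists 65.9% of genes had one for REX1, 67.6% for RNF12 WT and 66.7% for the RNF12 mutant. Among the top 20000 peaks of each list by −log10 q, 5 of the 10 genes had one for REX1, 9 for RNF12 WT and 10 for the RNF12 mutant, with no all-gene share counted. In the full lists, promoter peaks made up 34.9% of the peaks at the 10 genes for REX1 (29 of 83), 49.3% with RNF12 WT (36 of 73) and 51.0% with the RNF12 mutant (26 of 51). Over the peaks of all protein-coding genes, counted against the TSSs of any such gene, the shares were 39.6%, 40.1% and 38.9%. The REX1 share was low at *Jarid2*, *Kdm2b* and *Cbx7*, with 13 of 55 peaks at promoters (23.6%), while at the other 7 genes 16 of 28 were (57.1%). These 3 genes were picked as those with most peaks, so a lower promoter share follows in part from the choice. In the RNF12 lists these 3 genes were also lower, at 34.7% for RNF12 WT and 34.4% for the mutant, than the other 7, at 79.2% and 78.9%.

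The height of the promoter peaks set the lists apart more than their presence did. The median percentile of the highest promoter peak was 80.8 for REX1, 95.3 for RNF12 WT and 94.4 for the RNF12 mutant. Over all genes with a promoter peak it was 76.9, 80.5 and 79.8, so the 10 genes lay near the usual gene for REX1 and above it in both RNF12 lists. The 10 genes were chosen with earlier results of these data known, so their ranks do not stand for Polycomb genes at large. In 42 other Polycomb genes the medians were 78.2, 83.2 and 89.4. The promoter peak stood at or above the 90th percentile at 8 of the 10 genes for RNF12 WT, against 22.6% of all genes, and at 7 for the RNF12 mutant, against 14.2%. For REX1 it did so at 3 genes, *Mtf2*, *Rnf2* and *Cbx7*, against 17.9% of all genes, and by −log10 q at *Jarid2*, *Mtf2* and *Cbx7*. The shares of all genes at this limit include genes without a promoter peak. Of genes with one, 4893 of 14646 reached it for RNF12 WT, 3081 of 14450 for the RNF12 mutant and 3884 of 14291 for REX1. This limit was chosen after the values were seen. Where the peak nearest to a TSS was taken in place of the highest, the medians of the 10 genes were 63.5, 74.1 and 88.7, against 64.3, 65.7 and 76.2 for all genes.

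**Figure D2:**
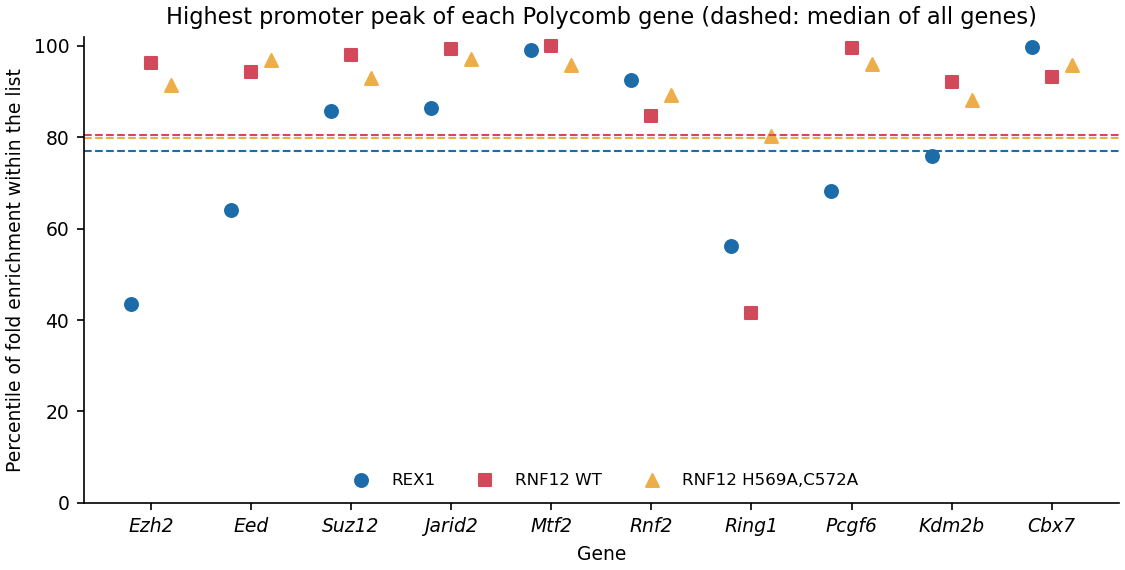
Percentile of the fold enrichment of the highest promoter peak within its own list (y axis) for each Polycomb gene (x axis), with circles for REX1, squares for RNF12 WT and triangles for the mutant, and dashed lines at the medians of all genes with a promoter peak (76.9, 80.5 and 79.8). The RNF12 values lie above these lines at every gene except the RNF12 WT value of *Ring1* (41.6), while REX1 values range from 43.5 at *Ezh2* to 99.78 at *Cbx7*.

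*Ezh2*, the methyltransferase of PRC2, had 4 REX1 peaks and 2 peaks in each RNF12 list. Its highest REX1 promoter peak, at chr6:47594943-47595077, had a fold enrichment of 4.31 and stood at the 43.5 percentile, the lowest REX1 value by fold of the 10 genes. The highest RNF12 WT promoter peak, at chr6:47595527-47595652, had a fold of 7.73 and stood at the 96.3 percentile, and that of the RNF12 mutant, at chr6:47594228-47595051, had a fold of 16.4 and stood at the 91.4 percentile. The RNF12 peaks with summits nearest to a TSS, 4 bp away for RNF12 WT and 54 bp for the mutant, stood lower, at the 53.5 and 61.7 percentiles. By −log10 q the same REX1 peak stood at the 74.3 percentile, below the all-gene median of 79.9, with *Ring1* (69.3) and *Eed* (72.2) lower. Apart from the outermost start, 2 inner start sites of *Ezh2* had no summit within 1 kb in any list. The remaining REX1 peak (fold 5.30, 70.6 percentile) lay 14965 bp from the nearest *Ezh2* TSS, past the 3′ end of the gene.

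*Eed*, the subunit that binds trimethylated lysine 27, had 5 REX1, 3 RNF12 WT and 4 RNF12 mutant peaks. Its highest promoter peaks had folds of 5.00, 7.18 and 22.6 and stood at the 64.0, 94.2 and 96.9 percentiles, in the order REX1, RNF12 WT, mutant. The REX1 summit was 9 bp from a TSS, and the RNF12 summits were 405 and 390 bp from one, inside the gene. An inner start site had a peak in the RNF12 mutant list alone, with its summit 275 bp away and at the 59.2 percentile. The highest REX1 peak away from the promoter lay downstream of the gene (fold 5.95, 80.5 percentile). Near it, about where ATGGCTCC, a REX1 string, lies on the other strand, REX1 (fold 5.74, 77.7 percentile) and the RNF12 mutant (fold 6.30, 41.8 percentile) shared a site with no RNF12 WT peak, the only site of its kind among the 113 sites at these genes. All bases of both summit windows there, and of that of the mutant peak at the inner start, are soft-masked in the reference.

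*Suz12*, the subunit that holds the PRC2 core together, had 6, 4 and 4 peaks, and the highest promoter peaks of the 3 lists had their summits within 20 bp of each other, 243, 256 and 263 bp upstream of its single TSS. Their folds were 6.53 for REX1, 8.49 for RNF12 WT and 17.6 for the RNF12 mutant, at the 85.8, 98.1 and 93.0 percentiles. *Suz12* thus ranked above the median of all genes in every list. Upstream of its promoter REX1 had a further peak (fold 5.39, 72.7 percentile) 1298 bp from the TSS. A second RNF12 WT summit 181 bp inside the gene (fold 7.97, 97.0 percentile) had the REX1 string ATGGCGCC within 50 bp.

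*Mtf2*, which encodes a Polycomb-like protein that guides PRC2 to CpG islands, had the highest RNF12 WT peak of all 10 genes. The promoter peak had a fold of 14.3 for REX1, at chr5:108065510-108065852, of 13.8 for RNF12 WT, at chr5:108065509-108065869, and of 20.8 for the RNF12 mutant, at chr5:108065535-108065909. It stood at the 99.1, 99.96 and 95.9 percentiles, with summits 3, 136 and 70 bp from the nearest TSS. *Mtf2* was thus the one gene of the 10 above the 95 percentile by fold in all 3 lists. A second promoter peak in both RNF12 lists, 559 and 577 bp inside the gene, stood at the 10.8 and 3.23 percentiles, and the other 2 REX1 peaks at the 20.4 and 21.7 percentiles.

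*Jarid2*, a DNA-binding cofactor of PRC2 and the longest of the 10 genes at 192.2 kb, had 17 REX1, 11 RNF12 WT and 9 RNF12 mutant peaks. The highest promoter peaks had folds of 6.66, 10.0 and 22.9 and stood at the 86.4, 99.4 and 97.1 percentiles, and all lay at the outermost start, where 7 TSSs fall between positions 44729535 and 44731287 of chromosome 13. At the inner TSS at position 44840691, RNF12 WT alone had a peak, with its summit 13 bp away (fold 8.95, 98.7 percentile). In an intron, at chr13:44733687-44734197, RNF12 WT had a peak as high as at the promoter (fold 10.1, 99.4 percentile), which overlapped peaks of REX1 and of the RNF12 mutant. The highest peak of the mutant away from a promoter lay in the same intron region (fold 11.7, 80.4 percentile), and that of REX1 3034 bp from the inner TSS (fold 6.05, 81.6 percentile). Of the 17 REX1 peaks, 14 were away from a promoter, and 10 of the 22 sites of *Jarid2* were REX1 sites with no RNF12 peak. The RNF12 mutant had 2 peaks in an intron, with folds of 3.39 and 4.28, low in its list at the 1.42 and 8.53 percentiles, although their −log10 q-values were 20.8 and 31.9.

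*Rnf2*, the main catalytic RING subunit of PRC1, had 4, 2 and 2 peaks. Its highest promoter peaks had folds of 7.89 for REX1, 6.12 for RNF12 WT and 15.2 for the RNF12 mutant. They stood at the 92.6, 84.7 and 89.3 percentiles, so that *Rnf2* was, with *Ring1* and *Cbx7*, a gene where REX1 ranked above RNF12 WT. The REX1 string ATGGCGAC lay within 50 bp of the RNF12 mutant summit and of neither other promoter summit. Away from the promoter, REX1 had an intron peak at the 89.4 percentile (fold 7.12), in a wholly soft-masked window, with no RNF12 peak, and the mutant had an exon peak at the 42.3 percentile (fold 6.30).

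*Ring1*, the paralogue of *Rnf2* and the shortest of the 10 genes at 3.89 kb, had the weakest RNF12 WT promoter. It had 3 REX1, 9 RNF12 WT and 3 RNF12 mutant peaks, and the highest promoter peaks had folds of 4.73, 4.36 and 11.6, at the 56.2, 41.6 and 80.2 percentiles. The REX1 summit lay 41 bp from the TSS, on the REX1 string ATGGCGGC, and the mutant summit 39 bp from it, next to the string, while RNF12 WT had 4 small promoter peaks between the 10.8 and 41.6 percentiles. The highest RNF12 WT peak assigned to the gene lay in an exon, away from the promoter (fold 4.87, 57.1 percentile). The density of RNF12 WT peaks, 6.48 per 10 kb, was at the 98.9 percentile of all genes. The highest REX1 peak assigned to *Ring1* (fold 6.51) and that of the RNF12 mutant (fold 15.1) lay 1 and 81 bp from a TSS of the neighbouring gene *H2-Ke6*.

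*Pcgf6*, which defines a variant PRC1 complex, had 3, 2 and 2 peaks in a gene of 17.3 kb. Its highest RNF12 WT peak (fold 10.3, 99.5 percentile) had its summit 6 bp from the TSS, and that of the RNF12 mutant (fold 21.1, 96.1 percentile) lay 204 bp inside the gene. REX1 reached a fold of 3.23 near that TSS, at the 10.2 percentile by fold and the 36.3 percentile by −log10 q, and its highest promoter peak (fold 5.18, 68.2 percentile) lay 540 bp inside. RNF12 WT and the RNF12 mutant also had peaks at the inner position, at the 74.4 and 69.5 percentiles. The highest REX1 peak of the gene by fold lay in an intron, away from the promoter (fold 5.39, 72.7 percentile).

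*Kdm2b*, which encodes a protein that binds unmethylated CpG and recruits variant PRC1, had 18, 16 and 10 peaks along 119.2 kb. It has 4 groups of start sites. REX1 and RNF12 WT had a summit within 1 kb of each of the 4 groups, and the RNF12 mutant at the outer 3. The highest promoter peaks had folds of 5.58, 6.90 and 14.6 and stood at the 75.8, 92.2 and 88.2 percentiles, for REX1 and RNF12 WT at the third group and for the RNF12 mutant at the outermost. The REX1 string ATGGCGCC lay within 50 bp of 1 REX1 and 1 RNF12 WT summit at the third group. The highest peak away from the promoters in the REX1 and RNF12 WT lists was the same site in an exon, at the 83.0 and 89.6 percentiles, and the RNF12 mutant had a peak there at the 21.5 percentile. The highest mutant peak away from the promoters was in an intron (fold 8.77, 67.2 percentile), and nearly all bases of its window are soft-masked in the reference.

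*Cbx7*, the main chromodomain subunit of canonical PRC1 in mESCs, had the most peaks, with 20 in the REX1 list, 22 in that of RNF12 WT and 13 in that of the mutant, and with densities at the 91.4, 90.7 and 86.1 percentiles of all genes. GENCODE places the outermost start of *Cbx7* at position 79971119 of chromosome 15, in transcripts with an incomplete coding end, and 2 further start regions lie 37.2 and 38.5 kb inside, of which RefSeq's promoter table holds only the innermost. At the outer start REX1 had a peak at chr15:79970572-79971175 with a fold of 20.0, a −log10 q-value of 81.6 and the 99.78 percentile, the highest REX1 peak at any of the 10 genes. Neither RNF12 list had a peak there: the nearest RNF12 WT summit was 8222 bp downstream, and the nearest RNF12 mutant summit was 6791 bp upstream, outside the 5 kb window. An outermost start with a REX1 summit and no RNF12 summit within 1 kb was found at 2.74% of all genes and at 1 of the 10.

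At the innermost start of *Cbx7*, the 3 lists had peaks together. The REX1 peak there had a fold of 7.73 (91.9 percentile), the RNF12 WT peak 7.07 (93.2 percentile) and the RNF12 mutant peak 20.8 (95.9 percentile), with summits 38, 49 and 39 bp from a TSS. The other inner region had peaks in every list too, at the 85.7, 62.9 and 73.3 percentiles. *Cbx7* was thus the one gene of the 10 with its highest REX1 promoter peak at a start where RNF12 had none. In introns between the starts, RNF12 WT and the RNF12 mutant shared sites about 8 to 11 kb inside the gene where REX1 had no peak, the highest in the RNF12 WT list at the 91.8 percentile (fold 6.77). The highest REX1 peak away from the promoters (fold 6.72, 87.3 percentile) had its summit in the REX1 string ATGGCTGC and no RNF12 partner, and the highest such peak of the mutant (fold 13.6, 86.1 percentile) overlapped peaks of both other lists.

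**Figure D3:**
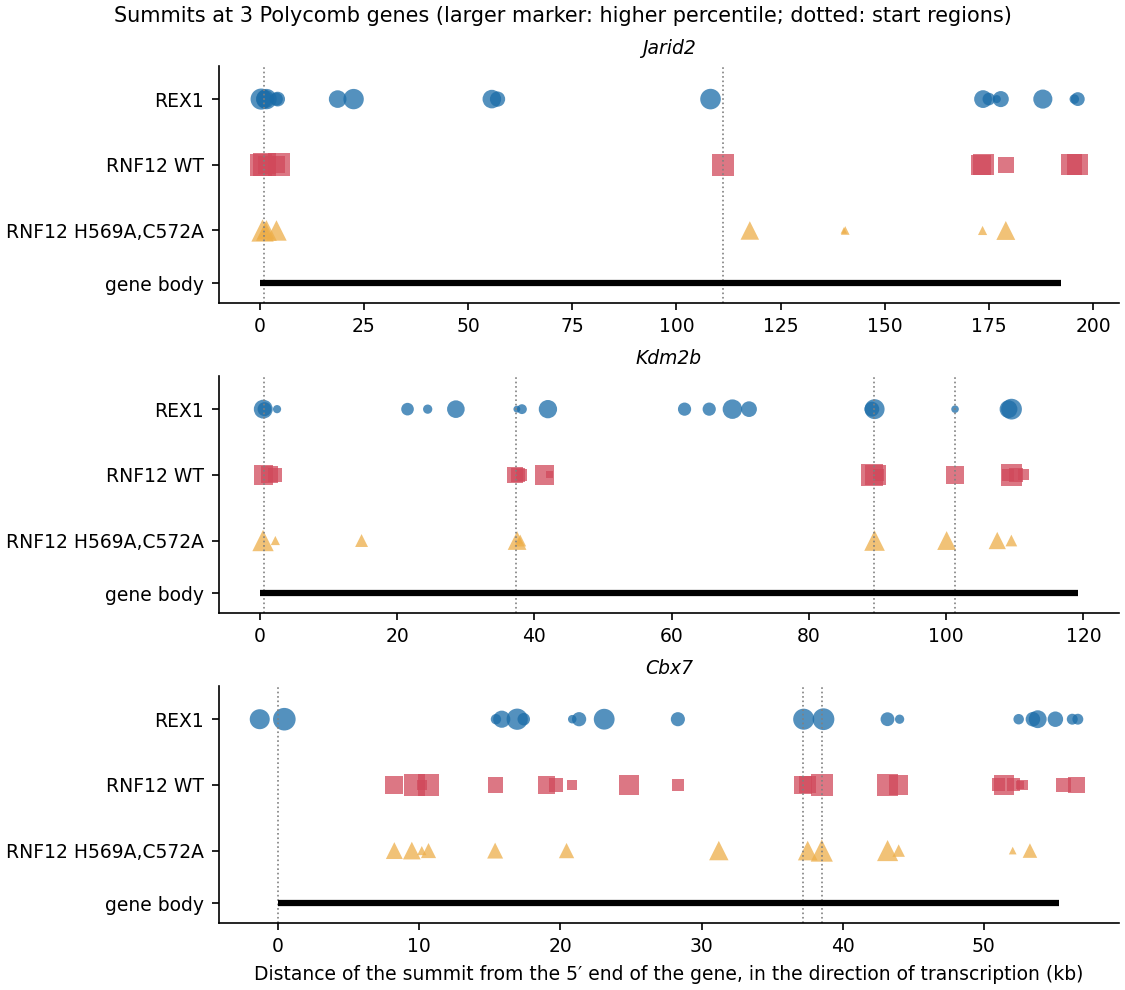
Summits in the 3 lists (rows) along *Jarid2*, *Kdm2b* and *Cbx7*, by distance from the 5′ end of the gene in kb (x axis), with larger markers for higher percentiles, dotted lines at groups of start sites and a black bar for the gene body. REX1 alone has a summit at the outer start of *Cbx7* (99.78 percentile) and RNF12 WT alone at the inner start of *Jarid2* (98.7 percentile).

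TSSs of a gene no more than 1 kb from the next were joined into start regions, which gave 21 regions at the 10 genes. At the outermost region of each gene REX1 had a summit within 1 kb at 10 of 10 genes and each RNF12 list at 9, all but *Cbx7*. Shares of outermost regions per list were not counted over all genes. At any start, 65.9% of all genes had a promoter peak for REX1, 67.6% for RNF12 WT and 66.7% for the RNF12 mutant. At the 11 inner regions REX1 had one at 5, RNF12 WT at 6 and the RNF12 mutant at 5, against 26.3%, 29.1% and 23.8% of the 10596 inner regions of all genes. The inner regions without any peak belonged to *Ezh2*, *Mtf2* and *Rnf2*, and those with one in every list to *Kdm2b* and *Cbx7*.

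Peaks of the 3 lists that overlapped were merged into 113 sites, of which 30 were at promoters. The 25 sites with peaks of all 3 lists lay at promoters in 17 cases (68.0%). REX1 alone held 39 sites, of which 2 (5.13%) were at promoters, those of *Cbx7* and *Kdm2b*. RNF12 WT alone held 17 sites and the RNF12 mutant alone 13, with 3 at promoters in each case. Both RNF12 lists without REX1 shared 9 sites, and REX1 and RNF12 WT without the mutant 9. Counted as peaks, 24 of the 29 REX1 promoter peaks (82.8%, interval 65.5% to 92.4%) and 8 of the 54 others (14.8%, 7.70% to 26.6%) had a partner in both RNF12 lists. The same contrast was present over all genes, at 63.0% and 15.9%, counted there against TSSs of any protein-coding gene.

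**Figure D4:**
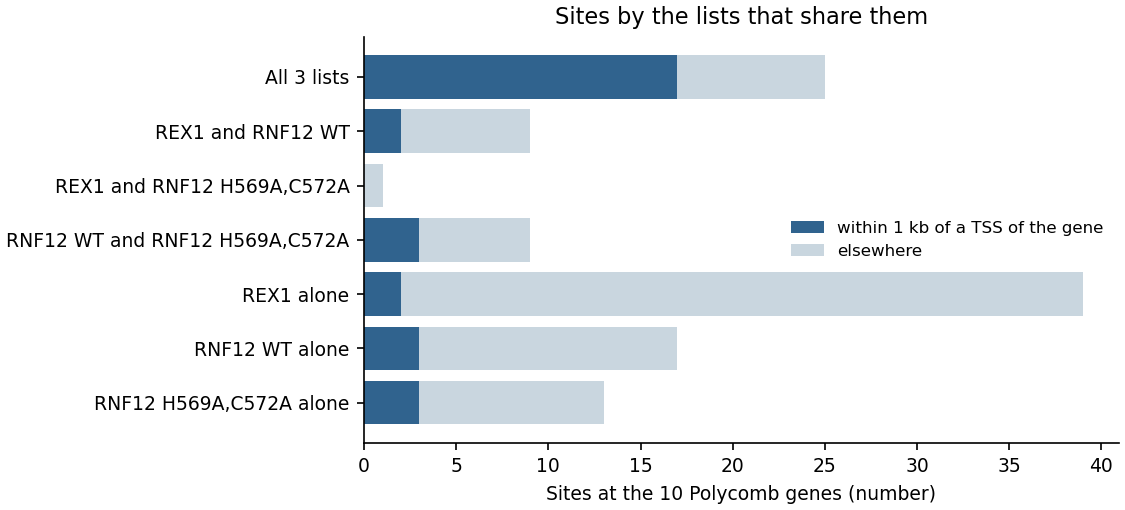
Number of sites at the 10 Polycomb genes (x axis) by the lists that have a peak there (y axis), with sites within 1 kb of a TSS of the gene in dark blue and others in pale blue. Promoters make up 17 of 25 sites common to all 3 lists and 2 of 39 sites of REX1 alone. Sites were not counted over all genes.

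Counted as peaks that overlapped by at least 1 bp, 26 of 29 REX1 promoter peaks (89.7%, interval 73.6% to 96.4%) had an RNF12 WT partner, against 69.8% of the promoter peaks of all genes. Of the 54 other REX1 peaks 16 had one (29.6%, 19.1% to 42.8%), against 27.6% over all genes. With the RNF12 mutant, 25 of 29 REX1 promoter peaks (86.2%, 69.4% to 94.5%) were shared, against 73.7%, and 9 of the 54 others (16.7%, 9.02% to 28.7%), against 23.0%. Over all REX1 peaks at the 10 genes, 41.0% (31.0% to 51.7%) were shared with the mutant, against 43.1%. Read from the RNF12 side the promoter shares of the 10 genes were close to the rest: 25 of 36 RNF12 WT promoter peaks (69.4%, 53.1% to 82.0%) had a REX1 partner, against 68.5%, and 20 of 26 RNF12 mutant promoter peaks (76.9%, 57.9% to 89.0%), against 73.4%. Away from promoters 16 of 37 RNF12 WT peaks (43.2%, 28.7% to 59.1%) had a REX1 partner, against 27.1%, and 8 of 25 mutant peaks (32.0%, 17.2% to 51.6%), against 24.3%. In all shares split by promoter, the 10 genes are counted by their own TSSs and the all-gene values by TSSs of any protein-coding gene. Peaks at the *H2-Ke6* start assigned to *Ring1* are thus counted as away from promoters. Over all peaks at the 10 genes, 50.6% of REX1 peaks (40.1% to 61.1%) had an RNF12 WT partner, against 44.3%, 56.2% of RNF12 WT peaks (44.8% to 67.0%) a REX1 partner, against 43.7%, and 54.9% of mutant peaks (41.4% to 67.7%) a REX1 partner, against 43.4%. Apart from the REX1 promoter share with RNF12 WT and the RNF12 WT shares with REX1 over all peaks and away from promoters, these intervals include the value of all genes. Peaks of 1 gene are not independent, and 19 of the 37 RNF12 WT peaks away from promoters were at *Cbx7*. An interval that leaves out the value of all genes therefore does not set the 10 genes apart. A stricter overlap rule, 50% of both peaks, lowered the share of all REX1 peaks at these genes with an RNF12 WT partner to 27.7%.

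Between the 2 RNF12 lists, 47 of the 73 peaks of RNF12 WT (64.4%, 52.9% to 74.4%) had a partner in the RNF12 mutant, against 52.2% over all genes. Of the 51 RNF12 mutant peaks 37 (72.5%, 59.1% to 82.9%) had an RNF12 WT partner, against 53.6%. At promoters the shares were 86.1% (71.3% to 93.9%) and 88.5% (71.0% to 96.0%), beside 80.7% and 80.0% over all genes. Promoter peaks of the RNF12 mutant were wide, with a median of 376.0 bp against 210.0 bp for REX1 and 168.5 bp for RNF12 WT, and a wide peak overlaps others more readily. The part of peak width in these shares was not tested.

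The REX1 motif was searched as the strings ATGGCGAC, ATGGCGCC, ATGGCGGC, ATGGCTAC, ATGGCTCC and ATGGCTGC on both strands, in windows reaching 50 bp to either side of a summit. It was found at 9 of 83 REX1 peaks of the 10 genes (10.8%), beside 12.8% of all REX1 peaks, at 2 of 73 RNF12 WT peaks (2.74%, beside 4.68%) and at 3 of 51 RNF12 mutant peaks (5.88%, beside 3.59%). Counts of 2 and 3 peaks are too few to set the RNF12 shares apart from those of all peaks. Of the 29 REX1 promoter peaks 3 had one, at *Cbx7*, *Ring1* and *Kdm2b*. The other 6 REX1 peaks with a string lay away from the promoters, 2 of them in *Jarid2* introns and 1 each at *Ezh2*, *Eed*, *Ring1* and *Cbx7*. The YY1 core AAGATGGC, whose last 5 letters open the REX1 strings, was at 1 REX1 peak, the outer start of *Cbx7* (1.20%, beside 5.65% of all REX1 peaks), and at no RNF12 peak of the 10 genes, beside 1.82% for RNF12 WT and 1.70% for the RNF12 mutant. The motif given for RNF12 in the study was not found at any of the 207 peaks with up to 1 mismatch, beside 3.12% of all REX1 peaks, 4.48% of all RNF12 WT peaks and 5.25% of all RNF12 mutant peaks.

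The promoters of the 10 genes were rich in CpG. All 10 genes matched RefSeq's table, with 15 promoters of 300 bases, and the median ratio of observed to expected CpG was 0.910, against 0.384 over all 32851 promoters, with a GC content of 64.3% against 52.7%. The REX1 strings occurred in 1 of the 15 promoters, that of *Ring1*, and in 7.14% of all promoters. At promoter summits the median GC content was 63.4% for REX1, 67.3% for RNF12 WT and 70.8% for the RNF12 mutant, and at the other summits of these genes 55.4%, 61.4% and 63.4%, beside 58.4%, 62.4% and 63.4% over all peaks, which lie at any location. The part of base composition in the ranks of these peaks was not tested.

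The other genes of the Polycomb machinery gave a similar picture of presence. Of 42 further genes for subunits of PRC2, PRC1 and the deubiquitinase complex PR-DUB, 41 had a promoter peak for REX1, 42 for RNF12 WT and 40 for the RNF12 mutant, and 39 had one in all 3 lists. Those without were *Pcgf3*, a variant PRC1 subunit, in the REX1 list, and *Epop*, a PRC2 cofactor, and *L3mbtl2*, a variant PRC1 subunit, in the RNF12 mutant list. Their median promoter percentiles were 78.2 for REX1, 83.2 for RNF12 WT and 89.4 for the RNF12 mutant, beside 80.8, 95.3 and 94.4 for the 10 genes. In the RNF12 WT list the median of the larger set was thus nearer to the 80.5 of all genes. In the RNF12 mutant list the median of the larger set was nearer to that of the 10 genes than to the 79.8 of all genes.

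Among these 42 genes the highest REX1 promoter peaks were at *Asxl1*, a PR-DUB subunit (99.86 percentile), *E2f6*, a DNA-binding subunit of variant PRC1 (99.74), and *L3mbtl2* (99.54). The highest for RNF12 WT were at *Mga*, the partner of MAX in the complex of *Pcgf6* (99.97), *E2f6* (99.85) and *Asxl1* (99.66), and for the RNF12 mutant at *E2f6* (99.89), *Aebp2*, a PRC2 cofactor (98.0), and *Cbx6*, a canonical PRC1 subunit (97.6). *E2f6* was among the highest in each list. *L3mbtl2*, in contrast, was at the 22.1 percentile for RNF12 WT, and *Cbx6* at the 2.02 percentile for REX1.

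**Figure D5:**
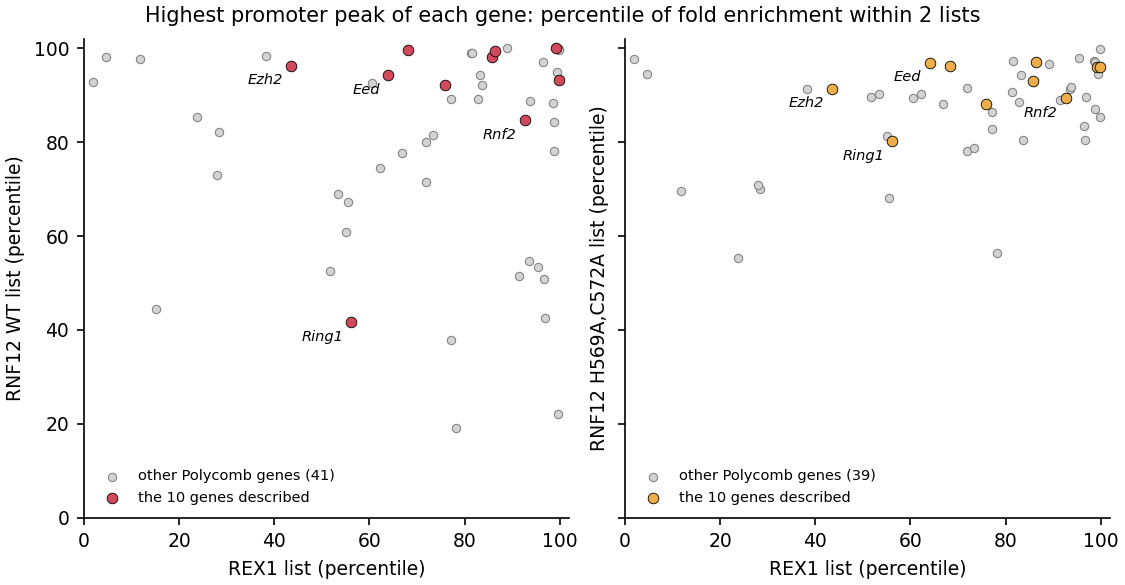
Percentile of the highest promoter peak in the REX1 list (x axis) and in the RNF12 WT list (y axis, left) or the RNF12 mutant list (y axis, right), with the 10 Polycomb genes described in colour and the other Polycomb genes with a promoter peak in both lists (41 and 39) in grey. *Ezh2* is the leftmost coloured point, at 43.5, and stands at 96.3 and 91.4 on the y axes, and *Ring1* is the one coloured point below the 80 percentile of the RNF12 WT list.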

How the data were processed

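The authors trimmed the reads with Trim Galore 0.6.7, aligned them with Bowtie2 2.5.0 to an mm10 genome masked at strain differences, used SAMtools 1.10, merged the alleles and called narrow peaks with MACS2 2.2.7.1 at its default settings, 1 library per list. The deposited values per peak are a fold enrichment, a ratio to the control signal at the summit, and the −log10 p-value and −log10 q-value of MACS2. The deposited score was not used. The 2 control libraries were not analysed here. Genes and TSSs were those of GENCODE release M21. Peaks were assigned by summit and ranked by fold within their list. Tied peaks took their mean rank. The 10 genes and the list of 42 others were chosen with earlier results of these data known, and all 10 are named, with the highest promoter peak and the highest peak away from promoters in each list. Of the other genes, those lacking a promoter peak and the 3 highest per list are named, and values of these genes in the other lists were added after they were seen. Peaks and sequence were handled in pandas 2.3.3, numpy 2.4.6 and pysam 0.24.0 under Python 3.11.15, with scipy 1.17.1 for intervals. The overlap step, tested on simulated data, recovered all 8000 planted overlaps in a set of 20000 peaks. Alternatives to window, distance, TSS set, threshold, overlap and ranking are given in the closing section.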

Additional observations from a re-analysis of the deposited data

How the results depend on the processing

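No paired analysis was possible because no result comes from a test and each group holds 1 sample, and for the same reason no replicate could be left out. Peaks at the 10 genes fell from 83 to 46 for REX1 and from 73 to 41 for RNF12 WT at a −log10 q of at least 5, and in the top 20000 of each list by −log10 q to 15 for REX1, 22 for RNF12 WT and 16 for the RNF12 mutant. In those 20000 peaks, 5 genes kept a REX1 promoter peak (not *Ezh2*, *Eed*, *Ring1*, *Pcgf6* and *Kdm2b*), 9 an RNF12 WT one (not *Ring1*) and 10 a mutant one. The share of all genes at this limit was not counted. Sharing was lower when overlap had to reach 50% of both peaks or summits had to lie within 100 bp: 27.7% and 33.7% for REX1 with RNF12 WT, 19.3% and 20.5% for REX1 with the mutant, 31.5% and 38.4% for RNF12 WT with REX1, 34.2% and 34.2% for RNF12 WT with the mutant, 31.4% and 33.3% for the mutant with REX1, and 49.0% and 49.0% for the mutant with RNF12 WT. Among the 20000 highest peaks it was 33.3% for REX1 with RNF12 WT, 27.3% for RNF12 WT with REX1 and 37.5% for the mutant with REX1, and at a −log10 q of at least 5 it was 55.6% for the mutant with RNF12 WT. With the peak nearest to a TSS, the median promoter percentile was 63.5 for REX1 and 74.1 for RNF12 WT. Ranking by −log10 q, an alternative added after the data were seen for the 90th percentile, left 3, 8 and 5 genes there. Stricter limits leave fewer peaks by construction. Other causes were not tested. The remaining alternative values stayed within 1.5 times the count, the interval of the share, or 10 percentile points. Depth is unknown, so weak sites may be missing from a list.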
